A study of Mus musculus with 23 samples.

Results

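The Toll-like receptors described here are Tlr1, Tlr2, Tlr3, Tlr4, Tlr6, Tlr7, Tlr9 and Tlr13, along with the adaptor Myd88 and the co-receptor Cd14. These 10 genes were chosen by name, through their Ensembl identifiers, from the 54232 gene identifiers counted in mouse hippocampus. All 10 passed the filter on low counts in both cohorts of the study, so none was left out of any test. Toll-like receptors are membrane proteins that recognise molecules of microbes and of damaged cells. Tlr1, Tlr2, Tlr4 and Tlr6 act mainly at the cell surface, Tlr2 pairing with Tlr1 or Tlr6 to bind lipoproteins and Tlr4 binding lipopolysaccharide, which Cd14 helps to deliver. Tlr3, Tlr7, Tlr9 and Tlr13 sit in endosomes and bind nucleic acids. Myd88 is the adaptor through which these receptors other than Tlr3 start the signalling that activates NF-kB, and in the brain microglia are the cells best known for carrying them.

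Poly(A) RNA of the hippocampus of C57BL/6 mice was sequenced in 23 libraries of 7 groups. At 9 months of age there were 4 libraries of wild-type mice (WT), 4 of mice with the PS19 transgene, which expresses tau with the P301S change (PS19), 4 of such mice heterozygous for Lsd1 (PS19;Lsd1Δ/+, called heterozygous PS19 here) and 2 of Lsd1 heterozygotes with no transgene (Lsd1Δ/+). At 11 months all mice had received a virus into the hippocampus, made for expression in neurons only: WT_HA (n = 3) are wild-type mice given an HA virus as control, PS19_HA (n = 3) are transgenic mice given the same HA virus, and PS19_rescue (n = 3) are transgenic mice whose virus carries LSD1. LSD1 is a histone demethylase encoded by Kdm1a. The PS19 transgene is driven by the prion promoter, which in brain is most active in neurons. The labels do not say that the libraries of a group come from separate mice, so p-values measure the spread between these libraries only. Sex is not given in the labels.

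The start regions of some members are shown first, picked by their difference between PS19 and WT mice, by role or by motif matches. Windows of 250 bases before to 50 bases after a transcription start were taken from RefSeq's GRCm38.p6 table for 7 of the 10 members. No window of Tlr4, Tlr7 or Cd14 was searched. Tlr2 showed the largest difference between PS19 and WT mice and Tlr3 the smallest, and both windows hold a match to the NF-kB motif, printed in capitals. Myd88 is shown as the shared adaptor, with its match to the interferon-stimulated response element in capitals, and Tlr9 as the receptor with 2 kinds of match, AP-1 followed by PU.1. Windows are chr3:83841559-83841858 (minus strand) for Tlr2, chr8:45410331-45410630 (minus) for Tlr3, chr9:119339969-119340268 (minus) for Myd88 and chr9:106222348-106222647 (plus) for Tlr9.
Tlr2: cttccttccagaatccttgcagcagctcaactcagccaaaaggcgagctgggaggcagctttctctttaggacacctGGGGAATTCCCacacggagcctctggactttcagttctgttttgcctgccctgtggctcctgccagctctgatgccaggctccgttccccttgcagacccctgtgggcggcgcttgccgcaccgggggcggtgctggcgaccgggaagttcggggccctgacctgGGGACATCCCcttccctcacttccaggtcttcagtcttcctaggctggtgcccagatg
Tlr3: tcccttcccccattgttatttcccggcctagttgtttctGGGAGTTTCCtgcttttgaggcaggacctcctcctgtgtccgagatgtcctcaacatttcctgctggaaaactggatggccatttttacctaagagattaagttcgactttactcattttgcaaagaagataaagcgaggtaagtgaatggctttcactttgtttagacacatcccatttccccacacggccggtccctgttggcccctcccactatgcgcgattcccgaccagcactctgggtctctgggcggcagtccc
Myd88: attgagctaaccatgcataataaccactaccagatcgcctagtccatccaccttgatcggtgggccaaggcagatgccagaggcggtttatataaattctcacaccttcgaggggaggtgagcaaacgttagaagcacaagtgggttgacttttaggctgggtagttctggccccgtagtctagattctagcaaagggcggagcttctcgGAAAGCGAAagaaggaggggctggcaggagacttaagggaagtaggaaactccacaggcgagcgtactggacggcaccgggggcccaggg
Tlr9: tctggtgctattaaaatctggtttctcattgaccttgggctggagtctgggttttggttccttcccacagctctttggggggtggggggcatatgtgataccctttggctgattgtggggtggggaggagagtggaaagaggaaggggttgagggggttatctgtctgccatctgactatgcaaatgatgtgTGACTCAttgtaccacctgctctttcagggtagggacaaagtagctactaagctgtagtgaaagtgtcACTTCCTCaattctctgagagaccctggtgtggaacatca

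Both strands were searched for NF-kB by its usual degenerate motif, for the interferon-stimulated response element as GAAANNGAA, for PU.1 as GAGGAAGT and for AP-1 as TGANTCA. The NF-kB motif was found in 4.51% of all 32851 RefSeq windows, the interferon-stimulated response element in 8.56%, PU.1 in 3.2% and AP-1 in 7.81%. In Tlr2 the NF-kB matches lay at -173 to -163 from the start, where matches on both strands overlap, and at -8 to 1. The match of Tlr3 lay at -211 to -202 and that of Myd88 at -40 to -32. Tlr1 also held a PU.1 match and Tlr6 a pair of overlapping matches to the interferon-stimulated response element, whereas the window of Tlr13 held none of these letters. The receptor with the largest difference and the receptor with the smallest thus both have an NF-kB match, which is a description of the letters only.

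Tlr1 and Tlr6 lie side by side on chromosome 5 and share coding sequence, which bears on how their reads could be counted. The longest stretch identical in both is 229 bases long and is 1 of 6 such runs of at least 50 bases, 748 bases in all. It is found at chr5:64925537-64925765 in Tlr1 and chr5:64953828-64954056 in Tlr6 (GRCm38, minus strand), in coding exons of both.
Tlr1 and Tlr6: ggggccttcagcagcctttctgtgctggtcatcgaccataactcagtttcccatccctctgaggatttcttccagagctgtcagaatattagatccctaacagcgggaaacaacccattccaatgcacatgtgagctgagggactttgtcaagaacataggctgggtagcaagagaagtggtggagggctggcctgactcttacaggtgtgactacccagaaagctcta

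Of all stretches of 50 bases in the longest transcript, 15.3% of those of Tlr1 and 12.6% of those of Tlr6 occur in another gene. Myd88 shares 7.26% with Acaa1a, which overlaps it on the opposite strand, and Tlr3 shares 1.56% with the antisense gene Gm45542. How reads aligning to several places and the strand were handled is not given in the sources used here, so the values of Tlr1, Tlr6, Myd88 and, less so, Tlr3 carry that uncertainty. The other 6 members shared none.

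The genes lie at chr5:64924679-64933563 (Tlr1), chr3:83836272-83841767 (Tlr2), chr8:45395665-45411080 (Tlr3), chr4:66827584-66930284 (Tlr4), chr5:64952031-64960097 (Tlr6), chrX:167304929-167330558 (Tlr7), chr9:106222598-106226883 (Tlr9), chrX:106143204-106160493 (Tlr13) and chr9:119335934-119341411 (Myd88) of GRCm38, and Cd14 is on chromosome 18. Counts are of reads over exons.

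Depth ran from 15451494 to 24644977 counted reads per library (CPM below are read counts relative to library size, scaled by TMM), so a gene near 1 CPM rests on few reads. Mitochondrial transcripts took 2.86% to 6.04% of reads in 20 libraries, but the share was 33.9% in WT replicate 3. It was 16.1% in PS19 replicate 3, and WT_HA replicate 2 had 16.2%. Prnp, read as a check of the transgene because its promoter and untranslated parts come from the prion gene, ran from 605 to 941 CPM without the transgene and from 1110 to 1818 CPM with it. Kdm1a ran from 36.5 to 55.2 CPM in heterozygous PS19, whose replicate 3 lay within the WT range of 53.1 to 58.4 CPM, and from 1763 to 10850 CPM in PS19_rescue. Summed markers of homeostatic microglia, 10 genes such as P2ry12 and Tmem119 all of which were present, ran from 309 to 341 CPM in WT. Sums for other cell types are given with the comparison of PS19 and WT.

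In WT hippocampus at 9 months, Tlr3 had the highest level per length of the members, at 3.58 ± 1.44 CPM per kb (SD, n = 4). Myd88 followed at 1.32 ± 0.601 CPM per kb and Cd14 at 0.630 ± 0.406. Tlr7, Tlr13 and Tlr9 lay close together at 0.556 ± 0.180, 0.554 ± 0.185 and 0.540 ± 0.243 CPM per kb, well within each other's spread. Tlr2 was at 0.355 ± 0.0816, Tlr4 at 0.282 ± 0.126, Tlr6 at 0.189 ± 0.0431 and Tlr1 at 0.133 ± 0.0367 CPM per kb. The gap between Tlr3 and Myd88 was the one gap in this order that exceeded the summed SDs of its neighbours. Tlr3 was also first in each of the other 6 groups. In PS19 mice Cd14 moved to the second place (3.69 ± 3.17 CPM per kb, n = 4) and Tlr2 to the third (2.49 ± 1.94), and Tlr6 and Tlr1 stayed in the last places.

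**Figure D1:**
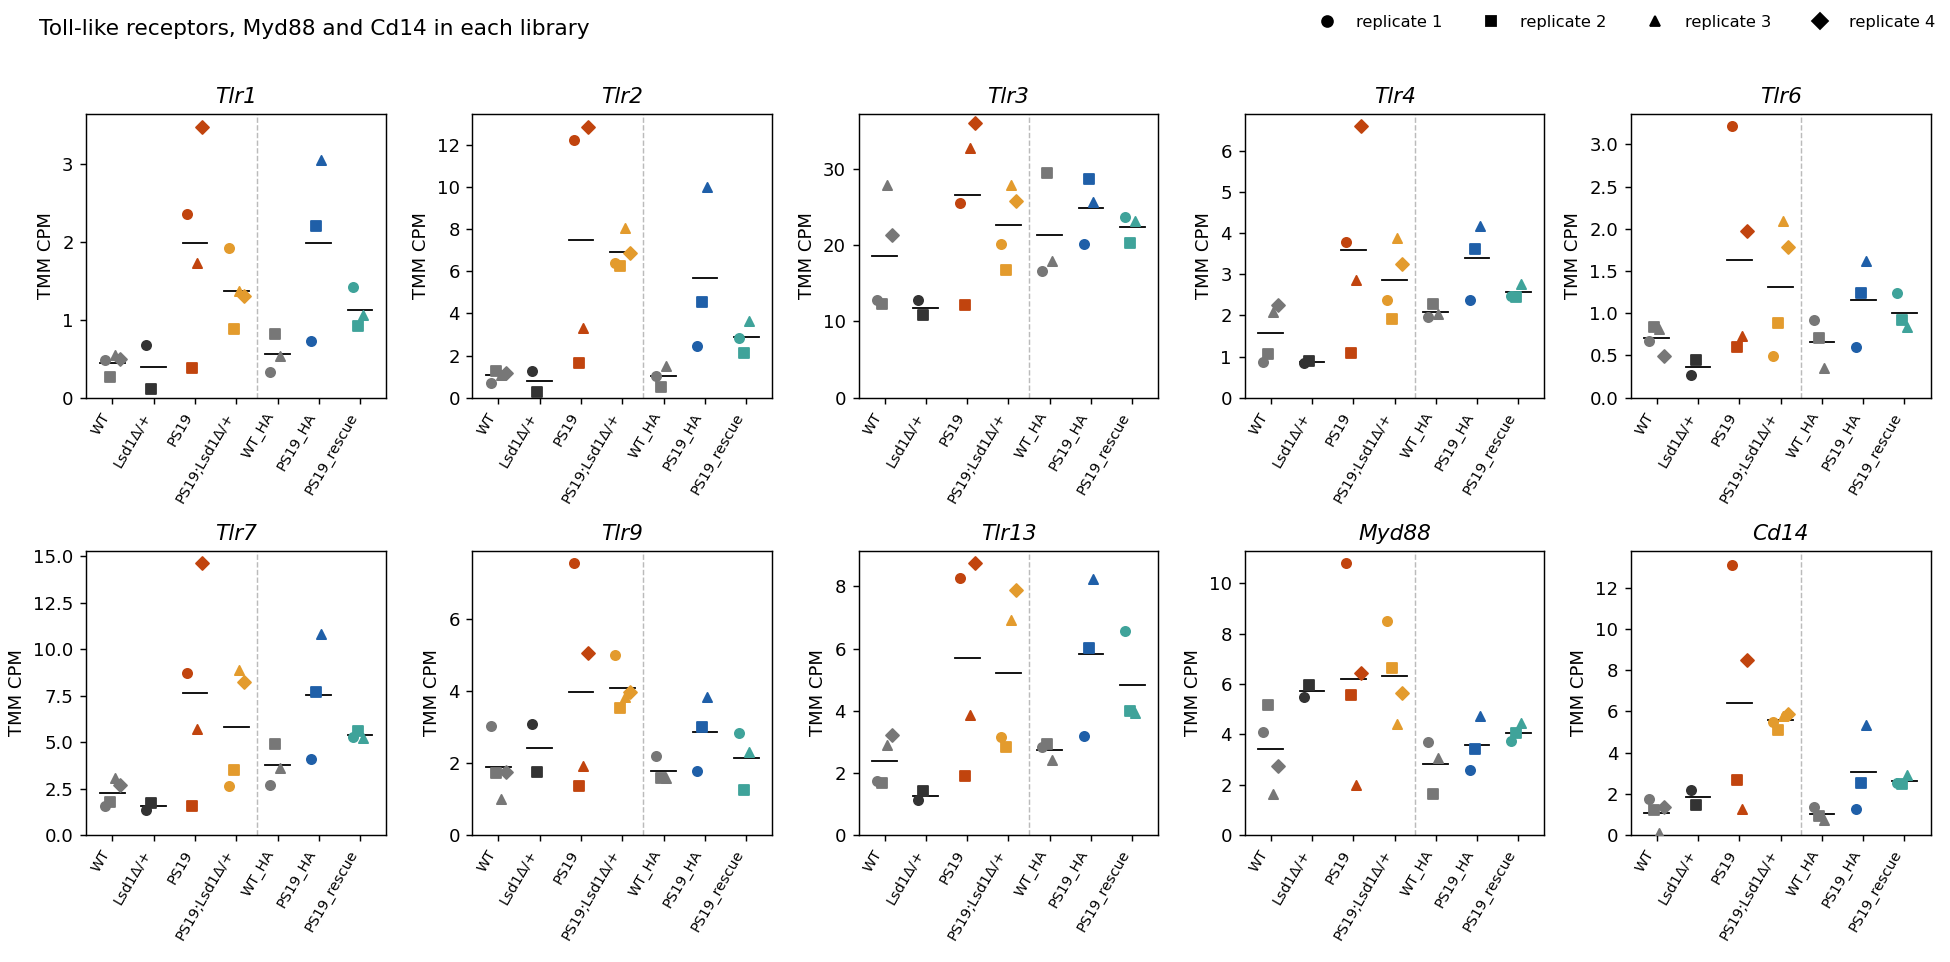
TMM CPM of each member (y axis, each panel with its own scale) in every library of the 7 groups (x axis), with the 9-month cohort left of the dashed line. Points are libraries, marked by replicate number, and black bars are group means. PS19 replicates 1 and 4 are high and replicate 2 is near the WT libraries for most members, and Tlr2 is the member whose PS19 and WT values do not overlap.

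Against WT, all 10 members were higher in PS19 mice, by a median of 1.22 on the log2 scale, where the median of all 20122 genes tested was -0.02 and 46.5% of genes were higher. No member passed edgeR's quasi-likelihood test with Benjamini-Hochberg adjustment over all genes, a test that called 0.00497% of genes (1 gene), although 7 members had an unadjusted p under 0.05, as did 3.91% of genes. DESeq2 called Tlr2 and Cd14, with 0.958% of genes called. With the replicate number as a block, which the data but not the labels support as a pairing, DESeq2 called Tlr1, Tlr2, Tlr7 and Cd14 and 1.81% of genes. Tlr2, Cd14 and Tlr1 had the largest differences, Tlr7, Tlr13, Tlr4, Tlr6 and Tlr9 lay in between, and Myd88 and Tlr3 had the smallest.

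Tlr2, the receptor for bacterial lipoproteins, was at 0.720, 1.28, 1.09 and 1.19 CPM in WT replicates 1 to 4 and at 12.2, 1.63, 3.33 and 12.9 CPM in PS19. The 2 groups did not overlap, as held for 1.02% of genes in this direction, and PS19 replicate 2 was the PS19 library nearest to WT. The difference was 2.80 (SE 0.61), with an adjusted p of 0.161 in edgeR and 0.000693 in DESeq2. Tlr2 stayed called by DESeq2 in each of the 8 fits that left out 1 library, with adjusted p-values up to 0.0323. Cd14, the co-receptor that hands lipopolysaccharide on, was at 1.73, 1.195, 0.0905 and 1.35 CPM in WT and at 13.1, 2.65, 1.26 and 8.50 CPM in PS19. WT replicate 3 held a single read of it, and PS19 replicate 3 lay inside the WT range. Its difference was 2.50 (SE 0.68, adjusted p 0.318 in edgeR and 0.0147 in DESeq2), and the DESeq2 call was lost without WT replicate 2, PS19 replicate 1 or PS19 replicate 4 (adjusted p up to 0.355).

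Tlr1, the partner of Tlr2 for triacylated lipoproteins, was at 0.480, 0.266, 0.543 and 0.491 CPM in WT and 2.36, 0.379, 1.73 and 3.48 CPM in PS19. It was higher in 3 of the 4 PS19 libraries than in any WT library, and replicate 2 fell inside the WT range. The difference was 2.17 (SE 0.62), with an adjusted p of 0.396 in edgeR, 0.0597 in DESeq2 and 0.00500 in DESeq2 with the block. Tlr6, the other partner of Tlr2, showed a smaller difference of 1.20 (SE 0.57) on values of 0.491 to 0.841 CPM in WT and 0.596 to 3.21 CPM in PS19. Tlr4, the lipopolysaccharide receptor, differed by 1.20 (SE 0.51), with 0.865 to 2.25 CPM in WT and 1.08 to 6.62 CPM in PS19. Neither Tlr6 nor Tlr4 passed any of these tests.

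Of the endosomal receptors, Tlr7, which binds single-stranded RNA, was at 1.54, 1.77, 3.08 and 2.70 CPM in WT and 8.74, 1.57, 5.72 and 14.6 CPM in PS19. Here too replicate 2 alone fell inside the WT range. The difference was 1.76 (SE 0.60), with an adjusted p of 0.653 in edgeR, 0.205 in DESeq2 and 0.0269 with the block. Tlr13, a receptor for bacterial ribosomal RNA, differed by 1.24 (SE 0.51) and Tlr9, which binds unmethylated CpG DNA, by 1.07 (SE 0.48). Tlr3, which binds double-stranded RNA and signals without Myd88, ran from 12.4 to 28.0 CPM in WT and from 12.1 to 36.0 CPM in PS19. Replicates 3 and 4 of PS19 lay above the highest WT value and the other two inside the WT range or just under it, and the difference of 0.50 (SE 0.38) was the smallest of the 10. Myd88 was at 4.08, 5.18, 1.63 and 2.74 CPM in WT and at 10.8, 5.58, 1.997 and 6.45 CPM in PS19, a difference of 0.85 (SE 0.42). Both groups had their lowest Myd88 value in replicate 3, and none of Tlr3, Tlr9, Tlr13 and Myd88 passed a test.

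PS19 replicate 2 was at or near the WT level for most members although its Prnp level, 1818 CPM, was the highest of the 4 PS19 libraries. Summed over the 10 members, CPM was 95.7, 28.9, 56.2 and 104 in PS19 replicates 1 to 4 and 27.7, 27.4, 41.2 and 37.5 in WT. The microglial marker sum was also highest in replicates 1 and 4, at 789, 356, 348 and 758 CPM in the PS19 libraries. It was lowest in replicate 3, whose member sum exceeded that of replicate 2. Each PS19 sum lay above the WT range of 309 to 341 CPM. Of the 10 microglial markers, 9 were higher in PS19 than in WT (median 0.68), with none called by either tool. The part of these markers in the members' differences was not tested. In bulk tissue, more cells of a type and more RNA per cell cannot be told apart. Without PS19 replicate 2, the median of the members was 1.52, edgeR called Tlr1 (2.52) and Tlr2 (3.14) with 0.725% of all genes called, and DESeq2 called 4 members with 1.69% of genes called.

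Markers of other cell types were read in the same comparisons, and their part in the results was not tested. The 6 markers of perivascular macrophages summed to 6.42 to 9.05 CPM in WT and 5.36 to 26.6 CPM in PS19, highest in replicate 1. Of the 5 that were tested, 5 were higher in PS19 (median 0.96), 4 in heterozygous PS19 (0.37) and 1 in PS19_HA (-0.14), and none was called by either tool. The 6 astrocyte markers summed to 3976 to 5812 CPM in WT and 4189 to 9700 CPM in PS19. All 6 were higher in PS19 (median 0.35), 5 in heterozygous PS19 (0.34) and 4 in PS19_HA (0.19), with 1 called by DESeq2 in each. All 5 choroid plexus markers were higher in PS19 (0.81), heterozygous PS19 (0.69) and PS19_HA (2.27) with none called, on sums that ran from 36.6 to 3321 CPM over the libraries. Of 8 markers of hippocampal neurons, 1 was higher in PS19 (-0.29), 0 in heterozygous PS19 (-0.41) and 2 in PS19_HA (-0.18). All 5 endothelial markers were higher in PS19 (0.22), as were 2 of 5 markers of red blood cells (-0.11) and 1 of 4 tested for dendritic cells (-0.16). The dendritic cell sum was at most 30.05 CPM except in heterozygous PS19 replicate 2, where it was 85.9 CPM. Sums stayed low for monocytes and neutrophils (at most 3.83 CPM outside PS19_rescue and 11.7 CPM in 1 library there), for B cells (at most 1.86 CPM) and for T cells (at most 10.3 CPM, in WT replicate 3). Ly6g, a neutrophil marker, was at 0 in PS19, heterozygous PS19 and PS19_HA.

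Heterozygous PS19 mice differed from WT mice in the same direction, with all 10 members higher and a median of 1.11 (0.00 over all genes, of which 50.1% were higher). EdgeR called no member and 0.00497% of genes, while 6 members and 6.31% of genes had an unadjusted p under 0.05. DESeq2 called Tlr2, with 0.552% of genes called, and with the replicate block it called Tlr1, Tlr2, Tlr9, Myd88 and Cd14, with 4.33% of genes called. In this comparison 2 of 4 libraries correlated best with the WT library of their own number. Tlr1, Tlr2, Tlr9 and Cd14 had groups that did not overlap, which held for 3.35% of genes in this direction. Both comparisons share the WT libraries. The microglial marker sum was 558, 354, 621.7 and 568.5 CPM in heterozygous PS19, each above the WT libraries, and 9 of 10 of these markers were higher (median 0.57), and its part was not tested.

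Tlr2 was at 6.38, 6.27, 8.07 and 6.88 CPM in heterozygous PS19, an even set with each value above the highest WT value of 1.28 CPM. The difference was 2.67 (SE 0.61), with an adjusted p of 0.321 in edgeR and 0.00290 in DESeq2, and DESeq2 called it in each of 8 fits with 1 library left out. Cd14 was as even, at 5.49, 5.12, 5.80 and 5.88 CPM, and differed by 2.31 (SE 0.68), with an adjusted p of 0.516 in edgeR, 0.0537 in DESeq2 and 0.000157 in DESeq2 with the block. Tlr9 was at 4.99, 3.52, 3.83 and 3.98 CPM against 3.03, 1.73, 0.996 and 1.76 CPM in WT, a difference of 1.10 (SE 0.48, DESeq2 adjusted p 0.565, with the block 0.0349). Its 4 values all lay above the highest WT value. Tlr1 was at 1.93, 0.879, 1.37 and 1.31 CPM and differed by 1.604 (SE 0.62, DESeq2 adjusted p 0.413, with the block 0.0249). Myd88 was at 8.50, 6.65, 4.42 and 5.64 CPM, overlapping WT, with a difference of 0.87 (SE 0.42, DESeq2 adjusted p 0.660, with the block 0.0409).

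Tlr7 was at 2.62, 3.48, 8.91 and 8.25 CPM in heterozygous PS19, with replicates 3 and 4 above and replicates 1 and 2 near the WT range. Tlr13 split likewise, at 3.16, 2.83, 6.93 and 7.89 CPM, as did Tlr6 at 0.494, 0.879, 2.09 and 1.78 CPM. Their differences from WT were 1.35 (SE 0.60), 1.12 (SE 0.51) and 0.90 (SE 0.58), and no tool called them. With replicates 1 and 2 alone, the difference of Tlr6 was -0.12. Tlr4 differed by 0.85 (SE 0.51) and Tlr3, again the smallest, by 0.25 (SE 0.38).

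No member differed detectably between heterozygous PS19 and PS19 mice. Heterozygous PS19 was lower than PS19 in 8 of 10 members, with a median of -0.22 against -0.02 over all genes, and differences ran from -0.57 (Tlr1, SE 0.58) to 0.03 (Tlr9, SE 0.47). No member had an unadjusted p under 0.05 in edgeR or DESeq2. EdgeR called 0.0% of genes and DESeq2 0.00502%, and 0.268% of genes had non-overlapping groups in the lower direction, none of them members. Replicate 3 of heterozygous PS19 had a Kdm1a level of 55.2 CPM, inside the WT range, where the others had 36.5 to 43.6 CPM. Without that library the median was -0.34 and neither tool called a member. Without PS19 replicate 1 or 4, the highest PS19 libraries for most members, the median was 0.13 or 0.08. For Tlr2 the difference was -0.13, with an approximate 95% interval (from the SE and the total degrees of freedom in edgeR) of -1.33 to 1.07, and for Cd14 it was -0.19 (-1.54 to 1.17), so changes of about 2-fold either way were within the intervals. The spread of the 2 groups differed in these libraries: Tlr2 ran from 1.63 to 12.9 CPM in PS19 and from 6.27 to 8.07 CPM in heterozygous PS19, and this difference in spread was not tested.

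Without the transgene, Lsd1 heterozygotes (n = 2) had 7 members lower and 3 higher than WT, with a median of -0.56 against -0.02 over all genes. Neither tool called a member, none had an unadjusted p under 0.05 in either tool, and edgeR and DESeq2 called 0.0% and 0.00502% of genes. Tlr6 was at 0.269 and 0.449 CPM and Tlr13 at 1.12 and 1.40 CPM, all below the WT libraries, as held for 5.8% of genes. Myd88 was at 5.48 and 5.95 CPM, above the highest WT value of 5.18 CPM, as held for 5.37% of genes. Tlr2 was at 1.26 and 0.280 CPM, within and below the WT range, with a difference of -0.51 (SE 0.76). Both libraries carry replicate numbers 1 and 2, and against WT replicates 1 and 2 alone the median was -0.10.

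**Figure D2:**
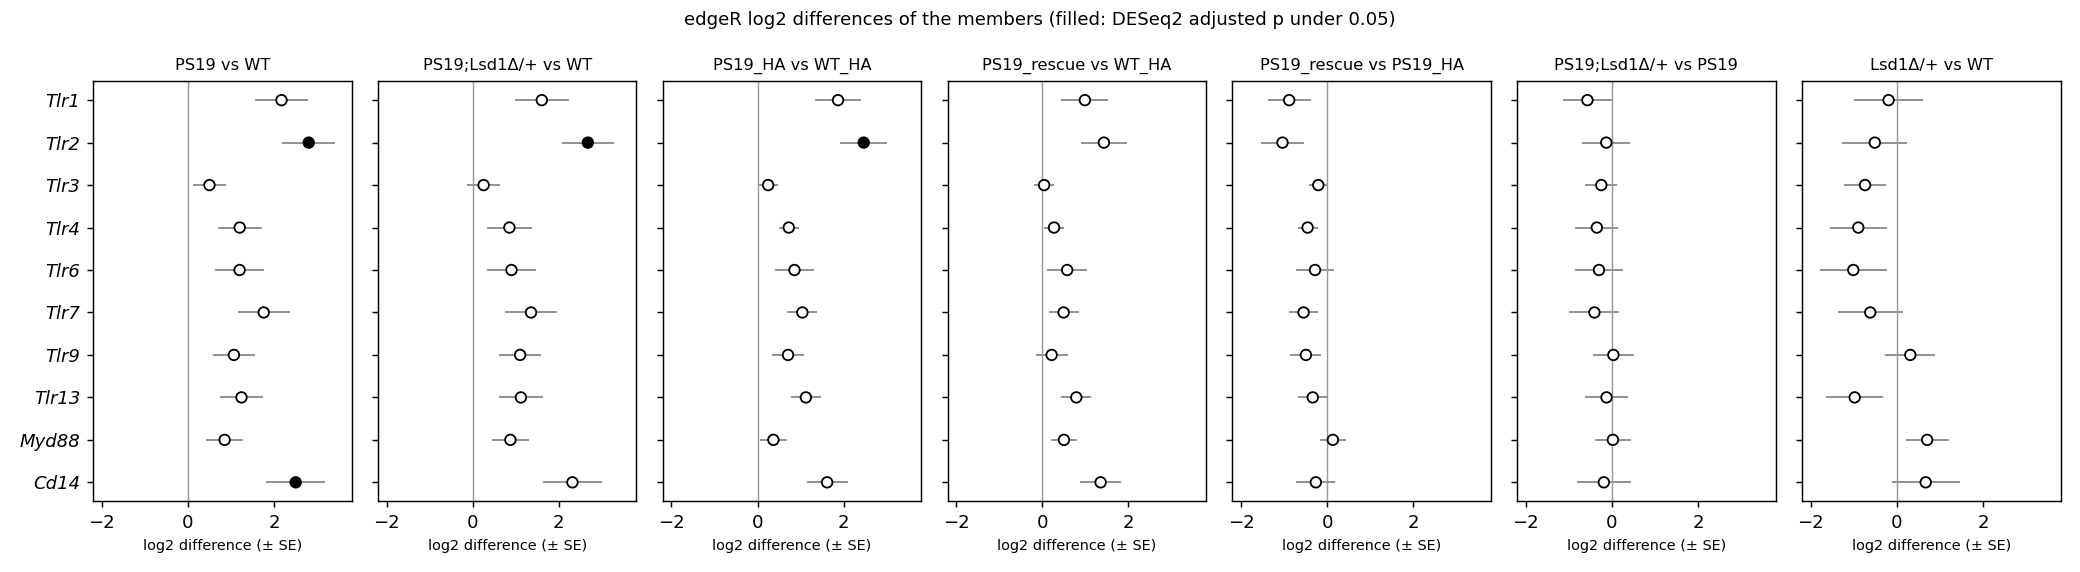
Log2 differences of the 10 members from edgeR (x axis, points with SE bars) in 7 comparisons (panels), with filled points where DESeq2's adjusted p was under 0.05. All members lie right of 0 in the 4 comparisons of transgenic with wild-type mice, with Tlr2 farthest right in each, and most lie near or left of 0 in the other 3.

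The difference of the members between replicate 3 and 4 libraries and replicate 1 and 2 libraries went with their base composition. Its cause was not tested, and the mitochondrial share was also highest in replicate 3 of WT (33.9%) and of PS19 (16.1%). GC content of the longest transcript ran from 39.4% in Tlr4 to 56.2% in Tlr9, with Cd14 at 52.5% and Myd88 at 53.5%. In WT, the mean log2 CPM of replicates 3 and 4 exceeded that of replicates 1 and 2 by 1.10 for Tlr4 and 0.95 for Tlr3, and was lower for Cd14 (-1.57) and Myd88 (-1.09). Over the 10 members, Spearman's rho of this difference with GC content was -0.93 in WT, -0.77 in PS19 and -0.68 in heterozygous PS19, a description over genes that share the same libraries. Over 20100 genes rho was -0.75, -0.76 and -0.62. Within replicates 1 and 2 alone, the median member difference between PS19 and WT was 1.47, and within replicates 3 and 4 alone it was 1.24. For heterozygous PS19 against WT these medians were 0.86 and 1.41. With a per-library adjustment for GC content the medians were 1.37 and 1.18, and that of Lsd1Δ/+ against WT was -0.12.

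**Figure D3:**
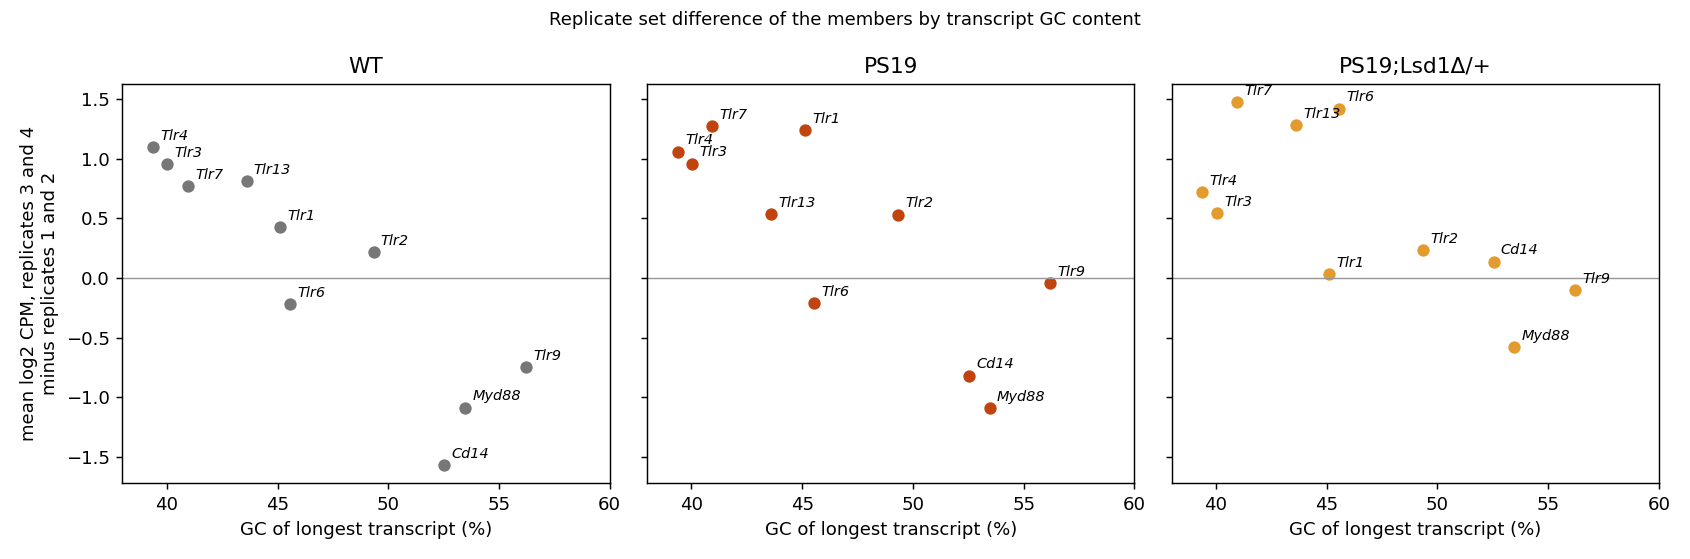
Difference in mean log2 CPM between replicates 3 and 4 and replicates 1 and 2 of a group (y axis) against GC content of the longest transcript in percent (x axis), for the 10 members in the 3 groups with 4 libraries. GC-poor receptors such as Tlr4 and Tlr3 lie above 0 and GC-rich Tlr9 and Myd88 lie below 0 in all 3 panels.

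In the 11-month cohort, PS19_HA mice had all 10 members higher than WT_HA mice, with a median of 0.95 against 0.00 over 19290 genes, of which 50.5% were higher. EdgeR called none of the members and 0.0156% of genes, and 6 members had an unadjusted p under 0.05, as did 8.63% of genes. DESeq2 called Tlr2 alone, without and with the replicate block, with 0.628% and 1.43% of genes called. Tlr2 was at 1.04, 0.527 and 1.50 CPM in WT_HA and at 2.47, 4.52 and 10.01 CPM in PS19_HA. The groups did not overlap, and the difference was 2.46 (SE 0.54, adjusted p 0.454 in edgeR and 0.00500 in DESeq2). Without WT_HA replicate 2, the library rich in mitochondrial reads, DESeq2's adjusted p for Tlr2 was 0.0548 and it called no member. Without PS19_HA replicate 1, the lowest of its group, it called 5 members, with 1.73% of genes called. Without PS19_HA replicate 3, the highest, the difference was 1.77 for Tlr2, still called by DESeq2, and 0.94 for Cd14, and the median of the members was 0.62.

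Tlr4 and Tlr13 also had groups that did not overlap, as held for 6.32% of genes in this direction. Tlr4 was at 1.96, 2.28 and 2.04 CPM in WT_HA and 2.38, 3.61 and 4.18 CPM in PS19_HA (difference 0.73, SE 0.24). Tlr13 was at 2.83, 2.93 and 2.42 CPM and 3.19, 6.02 and 8.23 CPM (1.12, SE 0.35). Cd14 was at 1.37, 0.937 and 0.731 CPM in WT_HA and 1.28, 2.53 and 5.34 CPM in PS19_HA, so replicate 1 of PS19_HA fell inside the control range, and the difference was 1.62 (SE 0.48). Tlr1 differed by 1.87 (SE 0.53) and Tlr7 by 1.04 (SE 0.34). Tlr6 (0.86, SE 0.45), Tlr9 (0.71, SE 0.36), Myd88 (0.37, SE 0.31) and Tlr3 (0.25, SE 0.23) followed. Within PS19_HA the sum of microglial markers was 316, 453 and 550 CPM in replicates 1 to 3. The sum of the 10 members ran in the same order, at 39.3, 62.9 and 77.5 CPM. Tlr3 by itself did not, at 20.1, 28.7 and 25.7 CPM. The lowest of these marker sums lay inside the WT_HA range of 286.5 to 337.5 CPM. Of the 10 markers, 9 were higher in PS19_HA than in WT_HA (median 0.53), with 1 called by DESeq2. Their part was not tested.

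Mice that received the LSD1 virus had lower means than PS19_HA for 9 of 10 members, with a median of -0.39 (-0.01 over all genes), but no member passed a test. In edgeR no member had an unadjusted p under 0.05, which 1.81% of genes had. In DESeq2 1 member had, and the share of all genes was not computed there. After adjustment edgeR and DESeq2 called 0.0% and 0.0156% of genes. Tlr2 was at 2.83, 2.12 and 3.65 CPM in PS19_rescue, inside or just below the PS19_HA range, with a difference of -1.04 (SE 0.50, unadjusted p 0.0686 and adjusted p 1.00 in edgeR). Its approximate 95% interval ran from -2.17 to 0.10. Tlr1 differed by -0.88 (SE 0.50) and Tlr7, at 5.26, 5.61 and 5.21 CPM, by -0.55 (SE 0.34). Myd88 was the member with a higher mean, by 0.13 (SE 0.31). No member had groups that did not overlap, which held for 1.87% of genes in the lower direction. PS19_HA replicate 3 was the highest library of its group for Tlr2, Tlr7 and Cd14, and without it the difference was -0.34 for Tlr2, -0.44 for Tlr1 and 0.41 in place of -0.26 for Cd14, with a median of -0.19. The microglial marker sum was 356.5, 362.9 and 383.8 CPM in PS19_rescue, between the lowest and highest PS19_HA values.

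Against WT_HA, PS19_rescue was higher for all 10 members, with a median of 0.54 (0.00 over all genes). Neither tool called a member, and edgeR and DESeq2 called 0.0207% and 0.0992% of genes. In edgeR, 3 members had an unadjusted p under 0.05, as did 4.01% of genes. For Tlr1, Tlr2, Tlr4, Tlr7, Tlr13, Myd88 and Cd14 the 2 groups did not overlap, 7 of 10 members where 6.86% of genes did so in this direction. Tlr2 differed by 1.43 (SE 0.54) and Cd14, at 2.54, 2.45 and 2.92 CPM, by 1.35 (SE 0.48). Tlr13 differed by 0.79 (SE 0.35). The remaining differences ran from 0.04 (Tlr3, SE 0.23) to 0.99 (Tlr1, SE 0.54). The microglial marker sums of PS19_rescue were above those of WT_HA (286.5 to 337.5 CPM), with 9 of 10 markers higher (median 0.27), and their part was not tested. PS19_HA and PS19_rescue are each compared with the same WT_HA libraries.

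The difference between PS19 and control mice was smaller at 11 months than at 9 months for each member, by 0.13 (Tlr13) to 0.88 (Cd14) on the log2 scale, but none of these was detectable. No member had an unadjusted p under 0.05 and both tools called 0.0% of genes. For Tlr2 the difference between cohorts was -0.34 (SE 0.86) and for Tlr7 -0.73 (SE 0.78). Age, virus and cohort changed together and cannot be told apart. The 2 comparisons share no library, and the order of the members was close in both: Pearson's r of their log2 differences was 0.95 over the 10 members and 0.62 over 18981 genes, as a description.

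**Figure D4:**
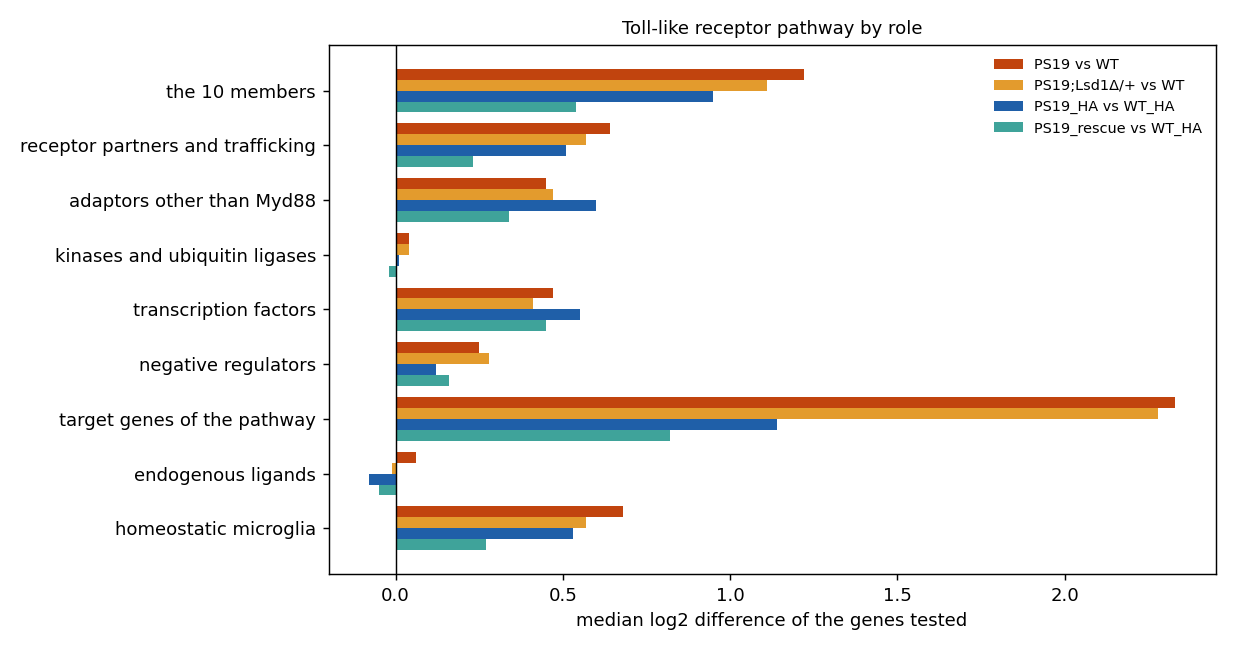
Median log2 difference (x axis) of the genes tested in 4 comparisons of transgenic with wild-type mice (colours). Rows are the lists of the Toll-like receptor pathway without the other Toll-like receptors. The 10 members and 10 homeostatic microglia markers are shown for comparison. Medians of target genes of the pathway are the farthest from 0, those of kinases and ubiquitin ligases and of endogenous ligands are near 0. Target genes low in WT could pass the filter through the transgenic groups alone, so their medians are a description.

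The rest of the pathway was read by role from lists chosen with earlier results of these data known. In its main fits edgeR called no gene of any list in any comparison, and with the block only Cxcl10 in PS19 (edgeR adjusted p 0.0343). Counts below are therefore of DESeq2, read against its backgrounds above. Without the block, none was called lower. Of 13 receptor partners and trafficking factors, 12 were higher in PS19 than in WT (median 0.64), and 2 were called. Ly86, whose product MD-1 joins the receptor-like protein Cd180, had a mean of 19.0 ± 11.4 CPM (SD) over 4 PS19 libraries and of 4.74 ± 1.34 over 4 WT libraries, a difference of 2.02 (SE 0.40, DESeq2 adjusted p 0.000373). Ctss, a cathepsin that takes part in the cleavage of endosomal receptors, was at 186 ± 107 and 49.3 ± 5.84 CPM (1.90, SE 0.38, adjusted p 0.000504). Both were again called in heterozygous PS19 (1.55 and 1.66) and in PS19_HA (1.29 and 1.32), where Ly86 kept its call in 0 of 8 and 1 of 6 fits with a library left out and Ctss in 3 and 2. With the block, 4 genes of this list were called in PS19, 6 in heterozygous PS19 and 3 in PS19_HA, all of them higher.

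Adaptors other than Myd88 were higher in 5 of 5 tested in PS19 (median 0.45) and none was called. With the block, Pik3ap1, which links the receptors to PI3K, was called higher in PS19 (DESeq2 adjusted p 0.00705) and in heterozygous PS19 (0.00674). The 17 kinases and ubiquitin ligases, such as those of the Irak and Traf families, had a median of 0.04 in both PS19 and heterozygous PS19, with 11 and 9 higher and none called, although the block gave 2 calls in heterozygous PS19: Ikbke was higher (0.87, DESeq2 adjusted p 0.0430) and Peli1, a ubiquitin ligase, was lower (-0.43, adjusted p 0.0218). In PS19_HA their median was 0.01. These medians lie close to those of all genes tested, which were -0.02, 0.00 and 0.00.

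All 10 transcription factors were higher in PS19 (median 0.47), and 2 were called. Irf7, which drives type I interferon after Tlr7 or Tlr9 is bound, was at 12.9 ± 14.9 CPM in PS19 and 0.937 ± 0.351 in WT (difference 3.70, SE 0.66, DESeq2 adjusted p 4.04e-06) and was called in heterozygous PS19 as well (2.92, SE 0.65, adjusted p 0.00171). Irf8, a factor of myeloid cells, was at 18.7 ± 11.8 and 5.69 ± 1.80 CPM in PS19 and WT (1.70, SE 0.40, adjusted p 0.00774), a call lost in 3 of 8 fits with 1 library left out (adjusted p up to 0.174). In heterozygous PS19 the block raised the calls in this list from 1 to 4, and in PS19_HA from 0 to 1 (Irf8, DESeq2 adjusted p 0.0455 with the block and 0.0880 without).

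Of 16 negative regulators 15 were tested, with a median of 0.25 in PS19, and 1 was called. Trim30a, which restrains NF-kB signalling in mouse cells, was at 11.8 ± 7.75 CPM in PS19 and 1.86 ± 0.594 in WT (2.66, SE 0.54, DESeq2 adjusted p 0.000228). In heterozygous PS19 it was at 8.02 ± 2.38 CPM (2.09, SE 0.53, adjusted p 0.0202), a call kept in 2 of 8 fits with 1 library left out (adjusted p up to 0.119). With the block, Nfkbie, an inhibitor of NF-kB, was called there too (1.39, DESeq2 adjusted p 0.000673).

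The median of the target genes was the highest of these lists, as a description only. Of 20 listed, 11 passed the filter at 9 months, and all 11 were higher in PS19, with a median of 2.33 and 6 called. In heterozygous PS19 10 of 11 were higher (median 2.28, 4 called, 6 with the block). Some of these genes, Cxcl10 among them, were so low in WT that they could pass the filter through the transgenic groups alone. The counts and medians of this list are thus a description, not comparable with those of the other lists. The same holds for the adjusted p-values of such genes. Cxcl10, a chemokine induced by interferon, was at 7.49 ± 5.38 CPM in PS19 and 0.162 ± 0.166 in WT (5.34, SE 0.76, DESeq2 adjusted p 3.82e-10), at 4.64 ± 2.51 CPM in heterozygous PS19 (4.64, SE 0.75), and at 2.75 ± 1.02 in PS19_HA and 0.494 ± 0.188 in WT_HA (n = 3 each, 2.48, SE 0.55). In PS19_rescue it was at 2.94 ± 1.59 CPM, higher than in WT_HA by 2.51 (SE 0.55, DESeq2 adjusted p 0.0231), the one pathway gene called there, in 2 of 6 fits with 1 library left out, as for its call in PS19_HA. Icam1, an adhesion molecule, was at 7.15 ± 5.64 CPM in PS19 and 1.39 ± 0.811 in WT (2.33, SE 0.59, DESeq2 adjusted p 0.00889, lost in 3 of 8 such fits). In PS19_HA 2 target genes were called, and with the block 3, Icam1 being the addition (DESeq2 adjusted p 0.0358 with the block and 0.0642 without).

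Endogenous ligands, such as Hmgb1, had a median of 0.06 in PS19 and -0.01 in heterozygous PS19, with none called. The remaining receptors were also low. Tlr12 was at 0.487 to 0.634 CPM in WT, a level like that of Tlr1 in CPM, and at 2.08, 0.163, 0.0666 and 1.42 CPM in PS19, so replicates 1 and 4 lay above and replicates 2 and 3 below WT. Tlr5 stayed at or below 0.836 CPM and Tlr8 at or below 0.928 CPM in every library, and Tlr11 had at most 3 reads. Tlr5 and Tlr12 passed the filter in both cohorts, Tlr8 at 9 months only and Tlr11 in neither. Unlike the members, Tlr5 was lower in PS19 (-0.29, SE 0.40), heterozygous PS19 (-0.26) and PS19_HA (-0.125) than in their controls. It was higher in PS19_rescue than in WT_HA (0.47). Tlr12 was higher in each of these comparisons (0.72, 1.08, 0.54 and 0.66). None of these receptors was called where it was tested. No list had a call in heterozygous PS19 against PS19, in Lsd1Δ/+ against WT or in PS19_rescue against PS19_HA.

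Within groups, some pairs of members varied together from library to library and others did not. Of 45 pairs, 26 had a Pearson's r above 0.5 and 4 had one below 0. Over deviations from the group means in the 23 libraries, the 45 pairs of members had Pearson's r from -0.51 to 0.92 with a median of 0.55, as a description over libraries that share depth and base composition effects. The highest were Tlr4 with Tlr7 (0.92) and Tlr7 with Tlr13 (0.91), and the lowest was GC-poor Tlr3 with GC-rich Myd88 (-0.51). Among 16165 genes of at least 1 CPM, Birc3 (0.91) and Wipf1 (0.90) were most like Tlr2, Cd53 (0.96) and Samsn1 (0.96) most like Tlr4, and Slc7a2 (0.94) and Cd84 (0.93) most like Tlr7. Erap1 (0.97) and Fam111a (0.95) were most like Tlr3, and Inpp5d (0.96) and Vsir (0.96) most like Cd14.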

How the data were processed

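The values used are read counts per gene as the authors deposited them (whole numbers, not normalized, a file for each library). Tools named in the submitters' processing notes are HISAT2 2.1.0, featureCounts 1.6.0.6, FastQC 0.11.7, DESeq2 2.11.40.2 and Trimmomatic 0.36.5, and the build named is GRCm38. These notes give the tools no role or order. How strand and reads with several alignments were treated, and which annotation release was counted, is not given in the sources used here. Groups and replicate numbers came from the sample titles, and symbols from a GENCODE M21 annotation, which matched 54165 of 54232 identifiers.

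From these counts, edgeR 4.0.16 in R 4.3.3 gave the main tests (quasi-likelihood, TMM, robust, filterByExpr by group with a minimum count of 10 and a minimum total of 15), 1 fit for each cohort (20122 and 19290 genes) and 1 over all 23 libraries for the difference between cohorts (20931 genes). Errors of log2 differences are the size of the difference divided by the square root of its F, and intervals use the t distribution with edgeR's total degrees of freedom. Calls have a Benjamini-Hochberg adjusted p under 0.05 over all genes tested. DESeq2 1.42.0 was the second tool, and genes whose adjusted p it left undefined (188 at 9 months, 17, 17 and 1139 at 11 months, 113 between cohorts) stayed out of its calls. CPM was scaled by TMM over all 23 libraries and log2 CPM used a prior count of 2. The fits were tested on simulated counts with less spread than the 9-month libraries, no replicate or GC effects, and changes in well-covered genes only. That test does not show how the fits perform on genes with few reads.

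The members, the pathway lists and the marker lists were chosen with earlier results of these data known. Every member was named in every comparison, and of each pathway list up to 3 genes per comparison that edgeR called, or that DESeq2 called with a mean of at least 1 CPM. The lists were 4 other Toll-like receptors, 13 receptor partners and trafficking factors, 6 other adaptors, 17 kinases and ubiquitin ligases, 10 transcription factors, 16 negative regulators, 20 target genes and 8 endogenous ligands.

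Replicate numbers recur across groups. Deviations from the group means correlated above 0.1 in every same-numbered pair of PS19 and WT (0.5 to 0.82), heterozygous PS19 and WT (0.31 to 0.54), heterozygous PS19 and PS19 (0.3 to 0.48), PS19_HA and WT_HA (0.11 to 0.3) and PS19_rescue and WT_HA (0.12 to 0.47), so these were taken as paired. The pairing comes from the data, not from the labels. Libraries that correlated best with their own number were 4 of 4, 2 of 4, 0 of 4, 3 of 3 and 2 of 3 in these comparisons, so the shared number is not what sets the correlation in each of them. Alternatives were the replicate block, DESeq2, other size factors, no filter, the compared groups alone, mitochondrial genes left out, a GC adjustment, subsets of replicates and each library left out. The GC adjustment, DESeq2 with the block or with libraries left out, and replicates 1 and 2 of Lsd1Δ/+ and WT were chosen after seeing the data.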

Additional observations from a re-analysis of the deposited data

How the results depend on the processing

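Of 1320 recomputed log2 differences of the members, 1254 kept their direction and their side of edgeR's threshold, 7 passed it and 59 changed direction, none of them in a comparison of PS19 or PS19_HA mice with their controls. The medians of the members kept their direction in each comparison of transgenic with wild-type mice under every alternative, at 1.03 to 1.52 for PS19, 1.01 to 1.25 for heterozygous PS19, 0.62 to 1.25 for PS19_HA and 0.51 to 0.72 for PS19_rescue with 1 library left out. Calls were less stable. Against 0 members called by edgeR, DESeq2 called 2 in PS19, 1 in heterozygous PS19 and 1 in PS19_HA, and edgeR fitted on the compared groups only called 1 in heterozygous PS19 (0.121% of genes). With the replicate block DESeq2 called 4 in PS19 and 5 in heterozygous PS19. Leaving out 1 library gave 0 to 2 members by edgeR in PS19 (0.00499% to 0.725% of all genes called in those fits), 1 to 4 by DESeq2 (0.346% to 1.69%), and 0 to 5 by DESeq2 in PS19_HA (0.0811% to 1.73%). The highest counts came from the fits with the highest shares of genes called. The cause of these shifts was not tested.

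In the comparisons with small differences, directions changed. For heterozygous PS19 against WT, Tlr6 was at -0.12 with replicates 1 and 2 only. For heterozygous PS19 against PS19, the replicate block gave 0.15 for Tlr2 and 0.26 for Cd14, and with the GC adjustment too 0.14 and 0.16. The GC adjustment alone gave -0.06 for Tlr9 and -0.02 for Myd88, replicates 1 and 2 only -0.09 and -0.12, and replicates 3 and 4 only 0.47 for Tlr6, 0.20 for Tlr13 and 0.22 for Cd14. With 1 library left out, differences there ran from -0.47 to 0.27 for Tlr2, -0.66 to 0.15 for Tlr4, -0.66 to 0.21 for Tlr6, -0.75 to 0.12 for Tlr7, -0.25 to 0.51 for Tlr9, -0.43 to 0.16 for Tlr13, -0.28 to 0.41 for Myd88 and -0.55 to 0.39 for Cd14. For Lsd1Δ/+ against WT, whose numbers were not taken as pairs (correlations 0.03 and 0.07), the replicate block gave 0.06 for Tlr7, the GC adjustment 0.07 for Tlr1 and -0.11 for Tlr9, both together 0.02 for Tlr1 and 0.15 for Tlr7 with a median of -0.03, and replicates 1 and 2 only 0.13 for Tlr1. Leaving out 1 library gave -1.94 to 0.54 for Tlr1, -1.93 to 0.17 for Tlr2 and -0.14 to 0.66 for Tlr9.

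For PS19_rescue against PS19_HA, also not taken as pairs (0.07 to 0.24), leaving out 1 library gave -0.62 to 0.00 for Tlr13, -0.59 to 0.04 for Tlr6, -0.05 to 0.38 for Myd88 and -0.63 to 0.41 for Cd14, and the block called no member. Against WT_HA it gave -0.11 to 0.35 for Tlr3 and -0.03 to 0.49 for Tlr9. The difference between cohorts ran from -0.76 to 0.15 for Tlr1, -1.02 to 0.11 for Tlr2, -0.58 to 0.02 for Tlr3, -0.79 to 0.05 for Tlr4, -0.67 to 0.14 for Tlr6, -0.67 to 0.09 for Tlr9 and -0.46 to 0.20 for Tlr13. The block changed the calls of members and pathway genes that are given with the results, and no other call among them. Of 290 recomputed differences of named pathway genes, 0 changed direction, but 29 passed the adjusted p threshold that none passed in edgeR's main fits. These alternatives include DESeq2, by whose calls the genes were named. Where members rest on few reads, as Tlr1 and Tlr6 in wild-type libraries (6 to 22 reads), counting error adds to the spread.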
